A study of Mus musculus with 6 samples.

Results

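C1q macrophages low in resident markers are droplets of the mouse aorta that carry the transcripts of complement C1q, the product of macrophages, with almost none of the transcripts by which resident arterial macrophages are usually recognised. They were chosen by their own counts. Only barcodes with 500 or more genes and no more than 20% mitochondrial UMIs were considered. The members were then selected on at least 10 UMIs of C1qa, C1qb and C1qc together, at most 1 UMI of Cd163, Folr2 and Lyve1 together, less than 1.5% of UMIs from the smooth muscle genes Acta2, Tagln, Myh11 and Cnn1, and at most 1 UMI of Pdgfra and Pecam1. A UMI, or unique molecular identifier, stands for 1 captured transcript. The rule found 563 cells among 53983 barcodes that passed the limits on genes and mitochondrial transcripts, or 1.04%, and the whole table holds 60871 barcodes.

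The series holds 10x Genomics single-cell libraries from the aortic tissue of 3 Best3SMKO samples and 3 Best3FL/FL samples. Best3 encodes a bestrophin, a family of anion channels, and the Best3FL/FL samples carry the floxed alleles. The label Best3SMKO names a smooth muscle knockout, but neither labels nor protocols give the Cre driver, the age, the sex or a treatment of the animals. The tissue was rinsed, minced and dissociated before droplet capture.

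All libraries were deposited as 1 table in which a suffix of 1 to 6 on each barcode marks the library, and no suffix matches a sample label. Cells could therefore not be assigned to a genotype, and no comparison of Best3SMKO with Best3FL/FL was made. The suffixes are called libraries 1 to 6 here, and their order carries no meaning. No difference between sets of cells was tested, because the members were selected on the counts that are compared. Cells of 1 library share a source and are not replicates.

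Macrophages in the arterial wall come in several states. Resident cells, many of which settle before birth, express the scavenger receptors and lectins Cd163, Folr2, Lyve1 and Mrc1. Other macrophages arise from blood monocytes that enter through the chemokine receptor Ccr2, and they tend to carry more MHC class II, the molecules that present peptides to CD4+ T cells. A further state with Trem2, a lipid-sensing receptor, and genes of lipid handling is known from atherosclerotic plaques.

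The 6 libraries held between 5909 and 15660 kept barcodes and 51813179 to 96144873 UMIs. Library 5 stood apart from the others. The airway secretory gene Scgb1a1 had 1860 CPM (counts-per-million, the share of all UMIs scaled up) over all kept barcodes of library 5 and at most 0.693 CPM in any other library, and Scrublet, a doublet caller, called 11.3% of its barcodes against 3.02% to 4.23% elsewhere. Among kept barcodes, 324 of the 16-base barcode sequences occurred in 2 or more libraries, covering 651 barcodes. None of these sequences was shared between members, although 6 members shared theirs with a barcode of another library. Scrublet called 32 members, or 5.68%, as doublets, and these were kept. Among the 155 members of libraries 1, 3 and 4, 49 carried Xist without Y-linked transcripts, 45 carried Y-linked transcripts without Xist, and 12 carried both. None of the 408 members of libraries 2, 5 and 6 carried Xist.

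Library 5 supplied 294 of the 563 members, and 269 remained without it. The other libraries supplied 48, 68, 37, 70 and 46 members for libraries 1, 2, 3, 4 and 6. To set these numbers against the macrophages of the same library, barcodes that met every other limit of the rule but carried 2 or more UMIs of Cd163, Folr2 and Lyve1 were collected as C1q resident cells, of which there were 2775. Members made up 9.64%, 14.0%, 10.8% and 9.35% of both sets together in libraries 1 to 4, 31.2% in library 5 and 14.4% in library 6. The exact Clopper-Pearson 95% interval of library 5 ran from 28.3% to 34.3% and lay above those of the others, whose highest bound was 18.7% in library 6. These intervals cover counting error only. Of kept barcodes, members made up 1.88% in library 5 and 0.518% to 0.930% in the others. C1q resident cells of libraries 1 to 6 numbered 450, 418, 307, 679, 647 and 274. They lay among 9275, 7315, 5909, 9428, 15660 and 6396 kept barcodes. How far more members or fewer resident cells set a share was not tested, and numbers in the tissue cannot be told from these counts. The median member had 5504 UMIs and 2206 detected genes, against 5328 UMIs and 2219 genes in C1q resident cells.

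**Figure D1:**
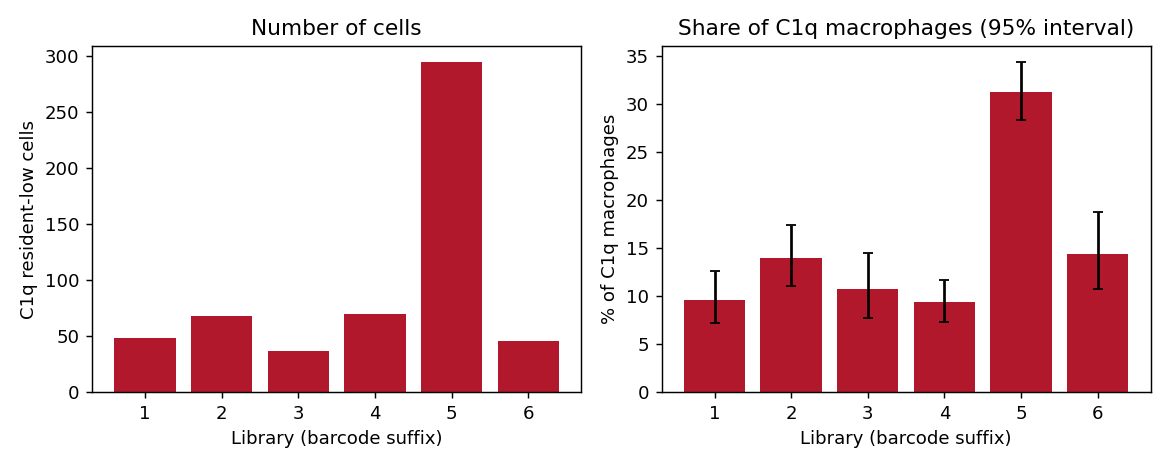
Number of C1q resident-low cells in each library (left) and their share of all C1q macrophages of that library in percent with Clopper-Pearson 95% intervals (right). Library 5 holds 294 cells and a share of 31.2%, and the shares of the other 5 libraries lie between 9.35% and 14.4%.

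The label was checked against macrophage markers. Csf1r, the receptor for the macrophage growth factor CSF1, had 900, 1004, 774, 745.7, 606 and 856 CPM in the members of libraries 1 to 6. Adgre1, which encodes the macrophage antigen F4/80, ranged from 279 to 615 CPM, and Cd68, a lysosomal macrophage protein, from 278.5 to 378 CPM. Each of these was present in every library, and the cells may be called macrophages by these markers. Mertk, the receptor by which macrophages take up dying cells, had 104 CPM over all members but did not serve as a marker, because barcodes rich in smooth muscle transcripts also carried it. C1qa, C1qb and C1qc, neighbouring genes on chromosome 4 (GRCm38, chr4:136880129-136898803), set the selection and had 3589, 4206 and 2311 CPM in members.

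The remaining marker genes separated less evenly. To compare detection at 1 depth, each cell was thinned to 2000 UMIs, which left out 97 members and 251 C1q resident cells. Of the 466 members left, 70.2% carried a Csf1r UMI (95% interval 65.8% to 74.3%), 97.9% a Cd74 UMI and 89.9% an H2-Aa UMI. Ccr2 was detected in 32.2% of members (28.0% to 36.6%) against 3.17% of C1q resident cells (2.52% to 3.93%), and without thinning the shares were 39.6% and 5.55%. Trem2 was detected in 20.6% of members (17.0% to 24.6%) and 19.8% of C1q resident cells (18.2% to 21.4%), with 34.8% and 39.6% before thinning. As a measure of free RNA, 3704 smooth muscle-rich barcodes without Ptprc transcripts, with a median of 11748 UMIs, were thinned in the same way. Ccr2 was found in 0.1105% of them, Trem2 in 0.166%, Csf1r in 1.02%, H2-Aa in 4.64% and Cd74 in 9.37%, all below the share in members. Mertk was found in 16.3% of members and 15.97% of these barcodes. Ccr2 detection in members varied between libraries from 13.2% in library 6 to 53.6% in library 4, and Trem2 detection from 15.7% in library 5 to 36.8% in library 6. Ccr2 and Trem2 thus each marked a minority of the selected cells, whereas MHC class II was detected in most.

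Members and C1q resident cells were compared gene by gene as summed counts, in CPM. A gene was called where its level reached 30 CPM in either set, the ratio with 2 CPM added to both sides was at least 2, and the direction was the same in all 6 libraries. Folds below are these ratios, and they understate the change of low genes. Because the rule divided these 2 sets by Cd163, Folr2 and Lyve1, genes that go along with those 3 had to differ, and the counts are a description. Of 5303 genes at that level, 144 were higher in members (2.72%) and 240 lower (4.53%). Without library 5, the same limits called 144 of 5197 genes higher (2.77%) and 232 lower (4.46%). The median log2 ratio over all genes compared was -0.04.

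MHC class II genes were higher in members. Of 10 listed genes 7 reached 30 CPM, and all 7 were called higher in members, none lower, with a median log2 ratio of 1.19, against -0.04 over all genes. H2-Aa, the alpha chain of the I-A molecule, had 8801, 8586, 6036, 8282, 8068 and 6869 CPM in the members of libraries 1 to 6, against 3402, 3391, 2884, 4400, 4986 and 3151 CPM in C1q resident cells. The lowest member library lay above the highest resident library, with a fold of 2.05 over all cells. Within libraries the log2 ratio averaged 1.08 ± 0.26 (SD, n = 6 libraries). H2-Ab1, its beta chain, had 6697 CPM in members and 2876 CPM in resident cells. Cd74, the invariant chain that guides class II molecules to endosomes, had 21222 CPM in members, against 10603 CPM in resident cells. H2-DMb1, part of the peptide-loading complex, had 660.3 CPM, against 205.5 CPM, the largest fold of the list at 3.19. Ciita, the master activator of class II transcription, had 93.2, 109, 81.9, 108.7, 95.1 and 164 CPM in members and 27.8, 29.4, 54.4, 31.8, 37.0 and 48.1 CPM in resident cells, which did not overlap either. The antigen-processing genes H2-DMb2, H2-Oa and H2-Ob did not reach 30 CPM in either set. Without library 5 all 7 genes were still called higher, with a median log2 ratio of 1.29.

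The class II genes lie in 1 block of chromosome 17 apart from Cd74 and Ciita. Their promoters are known to share an arrangement of conserved boxes, of which the Y box holds the letters TGATTGG, read by the factor NF-Y. RefSeq promoters (GRCm38.p6, 250 bases before to 50 after the gene start) were examined for 4 of the 7 called genes. Those of H2-Ab1, Ciita and Cd74 were not examined, so whether they hold the motif was not tested. The motif TGATTGG was searched on both strands and was found in 7.82% of the 32851 promoters of that table. Shown are the promoters of the 3 called genes that hold it, H2-Aa (chr17:34287774-34288073, minus strand), H2-Eb1 (chr17:34305617-34305916, plus strand) and H2-DMb1 (chr17:34152941-34153240, plus strand), written 5′ to 3′ with the motif in capitals. It begins 50, 61 and 63 bases before the gene start. A match is a description of the letters and not a measured site, and the letters were not found in the windows of the fourth gene examined, H2-DMa.
H2-Aa: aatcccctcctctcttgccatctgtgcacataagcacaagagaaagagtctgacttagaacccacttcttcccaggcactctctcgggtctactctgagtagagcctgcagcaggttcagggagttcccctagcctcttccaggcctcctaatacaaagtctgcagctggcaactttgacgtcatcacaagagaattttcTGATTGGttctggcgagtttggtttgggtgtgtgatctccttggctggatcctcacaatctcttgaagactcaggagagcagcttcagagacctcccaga
H2-Eb1: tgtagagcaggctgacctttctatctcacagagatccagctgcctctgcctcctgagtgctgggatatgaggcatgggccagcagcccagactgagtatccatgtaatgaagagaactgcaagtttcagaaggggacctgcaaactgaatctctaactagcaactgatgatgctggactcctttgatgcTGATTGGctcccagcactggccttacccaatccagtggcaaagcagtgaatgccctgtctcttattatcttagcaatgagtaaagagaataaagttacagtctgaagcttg
H2-DMb1: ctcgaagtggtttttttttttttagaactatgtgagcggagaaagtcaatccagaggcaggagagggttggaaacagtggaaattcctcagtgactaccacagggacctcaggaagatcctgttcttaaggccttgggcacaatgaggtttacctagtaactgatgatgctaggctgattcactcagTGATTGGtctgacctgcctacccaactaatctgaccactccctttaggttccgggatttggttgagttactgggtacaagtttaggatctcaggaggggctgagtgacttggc

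Genes known from blood monocytes and their recent descendants were also higher in members. Of 16 listed genes 11 reached 30 CPM, 8 were called higher and none lower, with a median log2 ratio of 2.98. Ccr2, the receptor for the chemokine CCL2, had 607, 236, 201, 876, 412 and 190.2 CPM in members of libraries 1 to 6, against 37.2, 59.6, 12.6, 41.3, 28.1 and 12.2 CPM in C1q resident cells, a fold of 11.9 and a log2 ratio within libraries of 3.6 ± 0.84 (SD, n = 6 libraries). Every member library lay above every resident library, and libraries 1 and 4 were highest among members. Ear2, an eosinophil-associated ribonuclease of mouse monocytes and macrophages, had 263 CPM in members and 11.04 CPM in resident cells, a fold of 20.3. Lyz1, a lysozyme, had 789 CPM, against 86.2 CPM, with members of libraries 1, 3 and 4 at 1577 CPM or more and those of libraries 2, 5 and 6 at 405 CPM or less. Fn1, which encodes fibronectin, had 989 CPM in members and 171 CPM in resident cells. The other called genes were Cd44, S100a4, S100a6 and Itgal. Ly6c2 and Plac8, which mark classical monocytes, were not called, because their transcripts came mostly from library 5. Ly6c2 had 265 CPM in the members of library 5 and at most 1.94 CPM in those of any other library, and Plac8 had 468 CPM and at most 25.2 CPM.

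Resident macrophage genes that the rule did not use were lower in members. Of 16 listed genes all reached 30 CPM, 15 were called lower and none higher, with a median log2 ratio of -2.14. Cd209f, a C-type lectin of resident macrophages, had 13.8, 3.83, 12.3, 7.77, 7.68 and 11.4 CPM in members and 277, 385, 460.1, 216, 380 and 439 CPM in resident cells, so that its level in members was 0.0310 times that in resident cells. Fcna, which encodes ficolin A, and Timd4, a receptor for phosphatidylserine, had 7.37 and 3.97 CPM in members, against 263 and 76.3 CPM in resident cells. The log2 ratio of Cd209f within libraries averaged -5.00 ± 0.66 (SD, n = 6 libraries). Other genes of the list differed less. Pf4, a chemokine best known from platelets, had 768 CPM in members, against 3321 CPM, Mrc1, the mannose receptor, had 539 CPM, against 2225 CPM, and F13a1, the A chain of coagulation factor XIII, had 369 CPM, against 2324 CPM. Maf, a transcription factor of resident macrophages, had 357 CPM in members and 1227 CPM in resident cells. The growth factor gene Igf1, at 127 and 290 CPM, was called lower over 6 libraries but not without library 5. After thinning to 2000 UMIs, 49.6% of members carried a Pf4 UMI and 55.6% an Mrc1 UMI, against 97.2% and 95.2% of resident cells. Low counts of the 3 selecting genes therefore went along with low but not absent levels of the wider program.

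**Figure D2:**
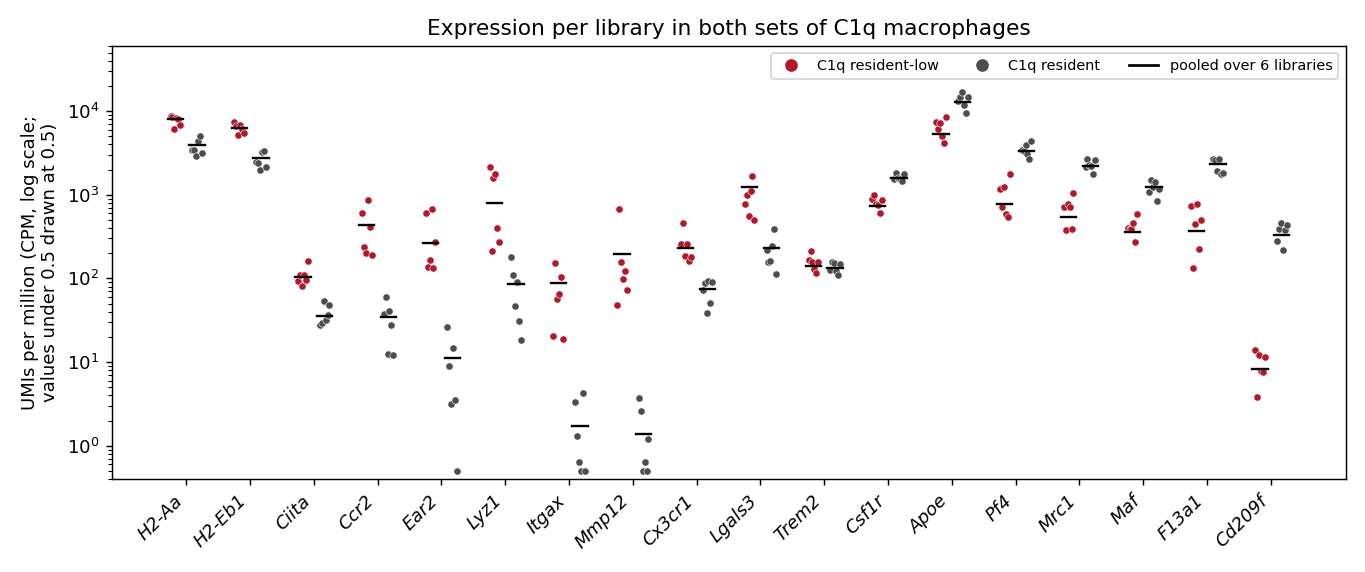
Level of 18 genes in each library in CPM on a log axis, with C1q resident-low cells in red on the left and C1q resident cells in grey on the right of each gene, and the level over all 6 libraries as a bar. H2-Aa and Ccr2 lie higher in every resident-low library than in any resident library, F13a1 and Cd209f lie lower, and Trem2 overlaps.

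Lipid-handling genes moved in both directions. Of 14 genes that reached 30 CPM, 5 were called higher in members and 3 lower, with a median log2 ratio of 0.11. Lgals3, which encodes galectin-3, had 783, 983, 553, 1093, 1680 and 498 CPM in members and 221, 157, 162, 241, 385 and 113 CPM in resident cells, a fold of 5.41 that was 4.33 without library 5. Fabp5, a fatty acid-binding protein, had a fold of 8.16 over all libraries, or 3.03 on the log2 scale against 2.38 without library 5. Lpl, lipoprotein lipase, had a fold of 5.75, Abcg1, a cholesterol exporter, of 4.95, and the tetraspanin Cd9 of 2.37. Thinned to 2000 UMIs, Cd9 was found in 31.3% of members, 15.2% of resident cells and 80.3% of smooth muscle-rich barcodes. The part of free RNA in its level was not tested. Apoe, the apolipoprotein of the same cells, was lower, with 4098 to 8490 CPM in the member libraries and 9592 to 16959 CPM in the resident libraries. The cholesterol exporter Abca1 and the fatty acid receptor Cd36 were called lower over 6 libraries but missed the limit of size without library 5, at ratios of 0.508 and 0.540. Trem2 had 142 CPM in members (95% Poisson interval 130.1 to 155) and 132 CPM in resident cells, and was called in neither direction. Spp1 and Gpnmb, other genes of the lipid-associated state, stood at 40.0 and 29.5 CPM in members and 4.38 and 10.2 CPM in resident cells, and neither was called.

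Of the genes called higher, Mmp12, macrophage elastase, had the largest fold. It had 48.3, 684, 156, 99.0, 122 and 72.3 CPM in the members of libraries 1 to 6 and at most 3.75 CPM in any resident library, a fold of 57.9. Library 2 was the highest among members, and library 3 came next. The log2 ratio of 5.85 over all libraries was 5.13 without library 2. Of 11 matrix protease genes, Mmp12, Mmp13, a collagenase, and Adam8, a membrane protease, were called higher in members, and Mmp9, a gelatinase, was called lower at 51.6 CPM, against 287 CPM. Itgax, which encodes CD11c, followed Mmp12 in size of fold, with 19.0 to 153 CPM in the member libraries and at most 4.27 CPM in the resident ones. The next genes were Ear2, F10, which encodes coagulation factor X, AA467197, the class I-like gene H2-M2, Ccr2, the cystine transporter Slc7a11, the Src-family kinase Fgr and Lyz1. The 10 lowest of the called genes were Cd209f, Fcna, Cd209b, Cd209g, Cd209d, Timd4, Siglech, Ednrb, Cd209a and Ltc4s, of which 5 are C-type lectins of the Cd209 cluster, whose copies resemble each other so that reads may be split between them.

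The monocyte-attracting chemokines Ccl2, Ccl7, Ccl8 and Ccl12 were lower in members, while Il1b was higher. Of 22 cytokine and chemokine genes 2 were called higher and 4 lower. Il1b, a proinflammatory interleukin, had 745, 981.5, 676, 757, 489 and 597 CPM in members and 119.8, 196, 306.5, 174, 363 and 287 CPM in resident cells, without overlap. Pdgfb, a growth factor for smooth muscle cells and pericytes, had 82.8 CPM in members and 39.3 CPM in resident cells. Ccl2, Ccl7, Ccl8 and Ccl12 were the 4 lower genes, with Ccl2 at 621 CPM, against 1538 CPM, and Ccl7 at 668 CPM, against 1829 CPM. Other chemokines of the list, Ccl3, Ccl4, Ccl6 and Ccl9, were not called. Without library 5, Ccl4 had 1655 CPM in members and 1025 CPM in resident cells and was higher in 5 of 5 libraries. Ccl3, Ccl6 and Ccl9 then had ratios of 1.15, 0.973 and 0.962.

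Receptors for dying cells and debris, complement genes and iron genes gave more lower than higher calls. Of 12 efferocytosis and scavenger genes 6 were lower in members and 2 higher. Gas6, a bridging ligand for dying cells, had 136 CPM in members and 566.5 CPM in resident cells, and Stab1, a scavenger receptor, had 179.5 CPM and 734 CPM. Axl, a receptor for Gas6, was in contrast higher, with 253 CPM in members and 93.5 CPM in resident cells, as was the fungal glucan receptor Clec7a. Of these 6 lower genes, Mertk, Cd36 and Pros1 were not called without library 5, where the list had 3 lower. Of 9 iron genes 4 were lower and none higher, among them the iron exporter Slc40a1 and the heme oxygenase Hmox1 at 321 CPM in members and 776 CPM in resident cells. Of 12 complement and Fc receptor genes, Fcgr4 was higher and 3 were lower, among them C5ar1 and C4b, C5ar1 not without library 5.

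The remaining groups differed in how many of their genes were called. Cx3cr1, the fractalkine receptor, was the only one of 13 macrophage marker genes that was called higher, with 159 to 454 CPM in member libraries and 38.5 to 92.6 CPM in resident libraries, while Csf1r and Mertk were called lower. Without library 5 neither Csf1r nor Mertk was called, at ratios of 0.531 and 0.550. Of 17 lysosomal genes, 1 was called higher in members and none lower. Of 9 genes known from brain and nerve macrophages, Tmem119 and Olfml3 were higher and Gpr34, P2ry12 and Siglech were lower. Of 14 transcription factor genes, Runx3 and Bhlhe40 were higher and Klf4, Maf and Tcf4 were lower. Of 5 dendritic cell genes, Itgax and Batf3 were higher and Cd209a and Clec10a were lower. None of 18 immediate early genes, which respond to tissue dissociation, and none of 9 cell cycle genes was called. Their median log2 ratios were -0.55 and 0.84, or -0.38 and 0.97 without library 5. The 14 listed cell cycle genes summed to 1886 CPM in members and 1099 CPM in resident cells, with members higher in every library. The immediate early genes summed to 15563 and 22772 CPM, with members lower in libraries 1 to 5 and higher in library 6. None of 12 interferon response genes was called. Their median log2 ratio was 1.27 with library 5 and 0.01 without it. Isg15, an interferon-induced ubiquitin-like protein, had 563 CPM in the members of library 5 and 34.5 to 293 CPM in those of the other libraries.

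**Figure D3:**
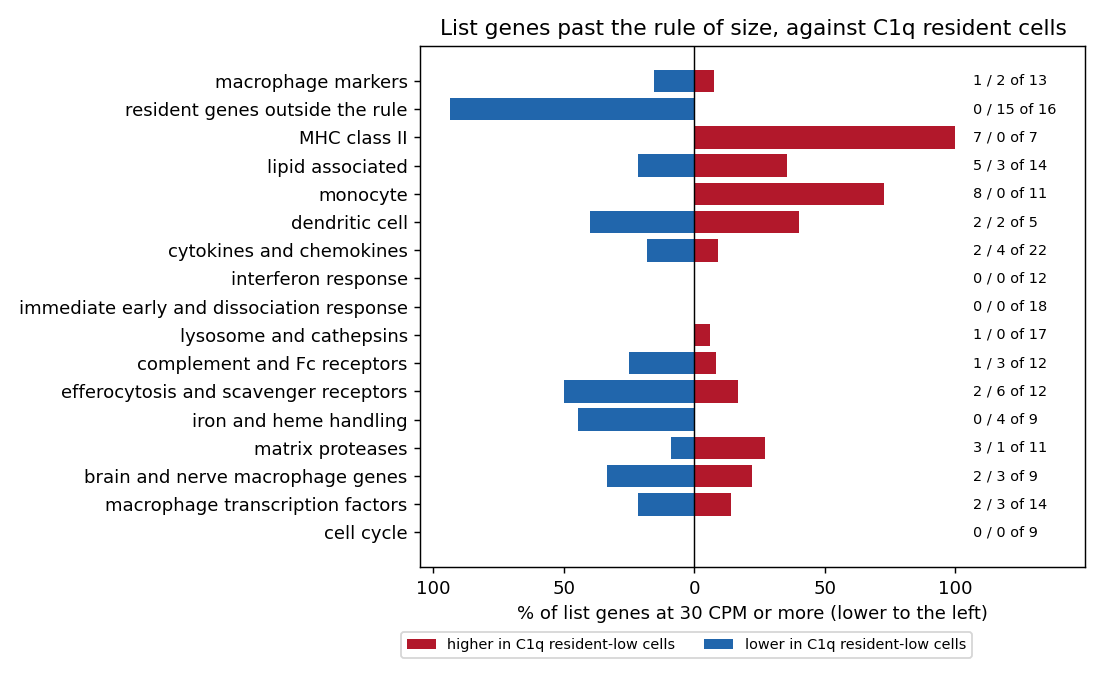
Share of each gene list called higher (red, to the right) or lower (blue, to the left) in C1q resident-low cells against C1q resident cells, in percent of list genes at 30 CPM or more, with the counts at the right edge. MHC class II has 7 of 7 genes higher, the monocyte list 8 of 11, and the resident list 15 of 16 lower.

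Markers of other cell types were followed beside these results. Of 59 markers of fibroblasts, endothelium, smooth muscle, T and NK cells, B cells, neutrophils, Schwann cells, epithelium, adipocytes and red cells, 20 reached 30 CPM and none of these was called. No endothelial, T and NK cell or adipocyte marker reached that level, and of the neutrophil, Schwann cell and epithelial lists 1 gene each did, so that few or no calls were possible there. The 7 fibroblast markers summed to between 1001 and 3272 CPM over the member libraries and 797 to 4127 CPM over the resident libraries. The 6 epithelial markers summed to 1212 CPM in the members of library 5 and at most 4.09 CPM in those of any other library. The 5 red cell genes summed to 2408 CPM in the members of library 6 and at most 83.5 CPM in those of the others, with Alas2 at 0. Ly6g and Retnlg, which define neutrophils, and Adipoq, Plin1 and Cidec, which define adipocytes, were at 0 in members. The part of these transcripts in the differences above was not tested beyond leaving out library 5.

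The limit on resident transcripts cut through a gradual change. Members with exactly 1 UMI of Cd163, Folr2 and Lyve1 numbered 154 and had 7239 CPM of H2-Aa, 493 CPM of Ccr2 and 1286 CPM of Pf4. Just outside, the 93 cells with 2 such UMIs had 6173 CPM of H2-Aa, 172.5 CPM of Ccr2 and 2062 CPM of Pf4. At the other limit, the 27 members with 10 or 11 C1q UMIs had 3525 CPM of H2-Aa and 752 CPM of Ccr2, against 5725 and 676 CPM in the 36 cells just outside with 8 or 9. Over 7 bins from 0 to 32 or more resident UMIs per cell, H2-Aa stood at 8245, 7239, 5176, 5087, 4453, 3950 and 2773 CPM. Mrc1 stood at 439, 861, 1324, 1845, 2079, 2363 and 2501 CPM over the same bins. Mmp12 dropped off faster, with 234 and 68.1 CPM in the member bins, 7.90 CPM at 2 to 3 UMIs and at most 2.90 CPM beyond. Ccr2 stood at 421 and 493 CPM in the member bins and at 111.7, 81.3, 24.2, 22.1 and 25.2 CPM in the others. The median depth of the bins was not even, at 6017 and 4521 UMIs in the member bins, 2803 UMIs at 2 to 3 resident UMIs and 7646 UMIs in the last bin. Shallow cells reach a limit in UMIs less easily, and when the limit was instead set at 1 UMI per 5000, 484 cells were selected.

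**Figure D4:**
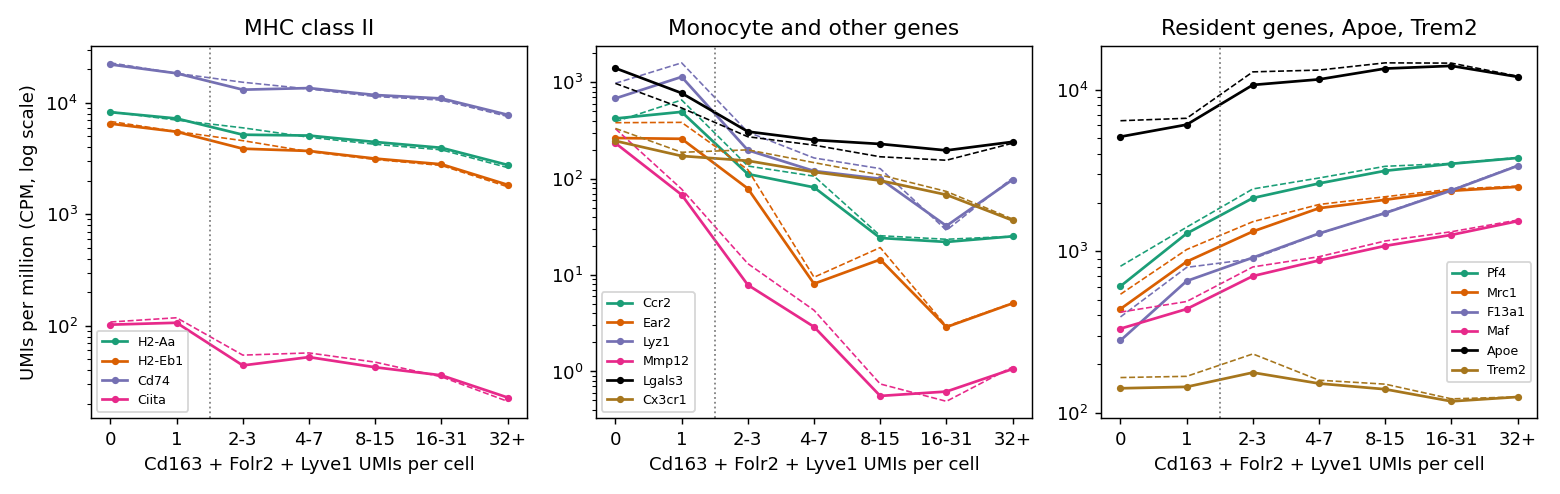
Level in CPM on a log axis against the number of Cd163, Folr2 and Lyve1 UMIs per cell in 7 bins of C1q macrophages, over all libraries (solid lines with points) and without library 5 (dashed lines), with the limit of the rule as a dotted vertical line. H2-Aa goes down from 8245 to 2773 CPM and Mrc1 goes up from 439 to 2501 CPM from the first bin to the last, and Trem2 stays between 118 and 177 CPM on the solid line and reaches 231 CPM on the dashed line, at 2 to 3 UMIs.

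The members were next set against the nearest myeloid barcodes that lack C1q. These C1q-low myeloid cells, 596 in number, had at most 1 C1q UMI, at least 10 UMIs of Lyz2, Tyrobp and Fcer1g, and few lymphocyte or neutrophil transcripts. By the same limits of size, 301 of 5264 genes were higher in members (5.72%) and 173 lower (3.29%). Since C1q divided these sets, the counts are again a description. The C1q-low set held 9109 CPM of Scgb1a1, all of it in library 5. With only C1q-low cells that had a Ptprc UMI and no keratin or Epcam UMI, a choice made after this value was seen, 334 of 5202 genes were higher (6.42%) and 198 lower (3.81%).

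Of 10 macrophage markers 9 were higher in members than in C1q-low myeloid cells and none was lower. Csf1r had 740 CPM in members and 144 CPM in C1q-low cells, Adgre1 had 382.5 and 48.3 CPM, and Trem2 had 142 and 10.0 CPM. Mertk, counted among the 9 although it did not serve as a marker above, had 104 and 11.2 CPM. The largest differences included Ms4a7, a membrane protein of macrophages, at 406 CPM in members and 2.81 CPM in C1q-low cells. Another was the B cell-attracting chemokine Cxcl13, at 256 and 0.602 CPM, the second from 3 UMIs. Few members carried Cxcl13, as given below. The anaphylatoxin receptors C3ar1 and C5ar1 had 415 and 316 CPM in members, against 11.6 and 14.4 CPM in C1q-low cells. Of 17 lysosomal genes 9 were higher, among them the protease gene Ctsb, and 1 was lower, the protease inhibitor Cst3. Of 21 cytokine and chemokine genes 12 were higher in members and none lower, including Ccl3 at 623.5 CPM, against 67.2 CPM, and Tnf at 176 CPM, against 36.7 CPM.

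Dendritic cell genes lay on the other side. Of 11 genes 6 were lower in members and none higher. Flt3, the growth factor receptor that defines the dendritic lineage, had 2.84 CPM in members and 67.4 CPM in C1q-low cells. Cd209a had 7.37 and 379 CPM, the lymph node homing receptor Ccr7 had 4.25 and 149.6 CPM, and Clec9a of cross-presenting cells had 1.98 and 48.9 CPM. Of 16 monocyte genes 5 were lower in members, among them Plac8, Itgal, Ace and Treml4, and none was higher. Ccr2 itself had 438 CPM in members and 430 CPM in C1q-low cells, higher in 3 of 6 libraries and lower in 3. The main class II genes were not called in either direction, with H2-Aa at 8006 CPM in members and 7351 CPM in C1q-low cells, and Ciita at 103 and 90.4 CPM. Only H2-Oa, H2-DMb2 and H2-Ob, which modulate peptide loading, were lower in members, 3 of 10 class II genes. The median log2 ratio of the 10 genes was -0.07. Against C1q-low cells with a Ptprc UMI and no keratin or Epcam UMI it was -0.28, with the same 3 calls. Summed, the 10 genes were lower in members of libraries 1, 3 and 6 and higher in those of libraries 2, 4 and 5. The transcription factor Irf8 was lower, with 180.0 CPM in members and 391 CPM in C1q-low cells.

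MHC class II differed widely among members. H2-Aa, H2-Ab1, H2-Eb1 and Cd74 together made up 4.17% of the UMIs of the median member, with 2.20% and 6.17% at the quartiles and a highest value of 12.6%. In C1q resident cells the median was 1.35%, with quartiles of 0.217% and 3.44%. Of members, 88 (15.6%, 95% interval 12.7% to 18.9%) had less than 1% of their UMIs from these genes, against 1259 resident cells (45.4%, 43.5% to 47.2%). The share of such cells among members was lowest in library 4, at 7.14% (2.36% to 15.9%), and highest in library 6, at 30.4% (17.7% to 45.8%). These libraries were picked as the lowest and the highest, and the intervals cover counting error only.

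Members were ranked by this share within each library to see what else differed along it, leaving the ranking genes out. Only library 5 had 20 cells in both the highest and the lowest of 4 equal parts, so direction was checked in library 5 alone. With level and ratio taken over all 6 libraries, 75 of 5439 genes were higher in the highest part (1.38%) and 631 lower (11.6%). Dividing each library at its median let 5 libraries take part in the check of direction. Then 7 of 5184 genes were higher in the upper part (0.135%) and 71 lower (1.37%). The 7 were H2-M2, at 71.2 CPM in the upper and 5.29 CPM in the lower part, Mmp13, at 143 and 30.6 CPM, Mmp9, at 76.7 and 25.3 CPM, and Nt5dc2, Cadm1, Rnase6 and the lectin Mgl2. Ciita had 133 CPM in the upper part and 71.1 CPM in the lower, in the same direction in all 5 libraries but under the limit of size. The 71 lower genes were led by Scara5, a ferritin receptor, and included the fibroblast gene Dcn, at 343 CPM in the upper and 1512 CPM in the lower part. Of 7 fibroblast markers, Dcn and Gsn were called lower in the upper part and none higher. In the upper part 2 of 281 cells had at least 1% of their UMIs from these markers, against 30 of 281 in the lower part, and Scrublet called 1 and 31 cells. Over all members 32 had such a share, 22 of them in library 5, and 18 of the 32 were called doublets. How far fibroblast transcripts set the lower calls was not tested.

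A second division was made by Ccr2, after the uneven detection given above was seen, and the genes named for it were chosen after their values were seen. A Ccr2 UMI was present in 223 members and absent in 340. The Ccr2-positive cells were deeper, with a median of 7434 UMIs against 4237 UMIs, so that shallow cells with the transcript are among the negatives. Without thinning, Trem2 was detected in 30.04% of Ccr2-positive members (24.1% to 36.5%) and in 37.9% of Ccr2-negative members (32.8% to 43.3%). Depth favours detection in the Ccr2-positive cells, so these shares are not on equal terms. The shares lay in this direction in libraries 3, 4 and 5 and were 33.3% on both sides in library 1. They lay in the other direction in library 2, at 62.5% and 46.15%, and in library 6, at 41.7% and 32.35%. As a level, Trem2 had 85.0 CPM in Ccr2-positive and 207 CPM in Ccr2-negative cells. Library 6 alone had the higher level in Ccr2-positive cells, at 184 CPM, against 138 CPM. In all, 156 members carried Ccr2 alone, 129 Trem2 alone, 67 both and 211 neither. Libraries 1, 4 and 5 had 20 cells on both sides, and direction was checked in these only. With level and ratio taken over all 6 libraries, 104 of 5197 genes were higher in Ccr2-positive cells (2%) and 141 lower (2.71%). Without library 5, 169 of 5233 genes were higher (3.23%) and 250 lower (4.78%), the direction then being required in 2 libraries only.

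Other features moved with this division. In libraries 1 and 4, which held cells with Xist and cells with Y-linked transcripts, 29 of 59 Ccr2-positive members carried Xist alone and 17 Y-linked transcripts alone, against 16 and 14 of 59 Ccr2-negative members. Xist was itself called higher in Ccr2-positive members without library 5, at 389 CPM, against 139 CPM. These levels pool libraries 2 and 6, where Xist was at 0, with libraries 1, 3 and 4. Within libraries 1, 3 and 4 the difference was smaller, at 355, 235 and 739 CPM in Ccr2-positive members. Ccr2-negative members of the same libraries had 248, 176 and 504 CPM. In libraries 2, 5 and 6 no member carried Xist. The 5 red cell genes summed to 21.9 CPM in Ccr2-positive members and 394 CPM in Ccr2-negative members, of which library 6 held most, at 3940 CPM on the negative side. The 6 epithelial markers summed to 110.1 CPM in Ccr2-positive and 1117 CPM in Ccr2-negative members, with 214 and 2483 CPM in library 5 and at most 11.4 CPM in any other library on either side. Fibroblast markers summed to 2671 and 2523 CPM. The part of the sex of the animals or of other cells' transcripts in the differences below was not tested, and values of library 5, in which no member carried Xist, are given beside those of libraries 1 and 4.

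Retnla and several monocyte genes were higher in Ccr2-positive members. Retnla, a secreted protein of alternatively activated macrophages, had 16705, 23807 and 8138 CPM in Ccr2-positive members of libraries 1, 4 and 5, against 49.6, 2031 and 279 CPM in Ccr2-negative members. Lyz1 had 3645, 2356 and 684 CPM in Ccr2-positive cells, against 16.5, 252 and 49.7 CPM in Ccr2-negative cells. In neither gene did the 2 sides overlap over these 3 libraries. Over all 6 libraries Retnla did overlap, with 1302 CPM in Ccr2-positive members of library 2 and 2553 CPM in Ccr2-negative members of library 6. A Retnla UMI was present in 51.1% of Ccr2-positive and 19.1% of Ccr2-negative members, and a Lyz1 UMI in 34.5% and 5.59%. Of 10 monocyte genes 5 were higher in Ccr2-positive members and none lower, namely Fn1, S100a4, S100a6, Lyz1 and Ear2. Without library 5, 6 of 8 were higher and Itgal was lower, at 16.3 CPM, against 49.4 CPM. Ear2 had 440 CPM in Ccr2-positive cells and 63.4 CPM in Ccr2-negative cells over all libraries. The chemokines Ccl6 and Ccl9 were higher, with Ccl9 at 1302 CPM, against 473.5 CPM. Lpl was higher, at 700 CPM in Ccr2-positive and 287 CPM in Ccr2-negative cells. Of 8 class II genes, Ciita and H2-DMb2 were higher, and H2-Aa had 8829 and 7075 CPM without a call. Ciita was not called without library 5.

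Trem2, Apoe and 7 of 22 cytokine and chemokine genes were lower in Ccr2-positive members. Trem2 had 76.9, 91.3 and 62.2 CPM in Ccr2-positive members of libraries 1, 4 and 5, against 290, 231 and 187 CPM in Ccr2-negative members. Apoe had 4071, 3498 and 2031 CPM in Ccr2-positive cells, against 12236, 8790 and 6731 CPM in Ccr2-negative cells. Of 15 lipid-associated genes, Trem2, Apoe, Cd9 and the tetraspanin Cd63 were lower in Ccr2-positive members and Lpl was higher. Most smooth muscle-rich barcodes also carried Cd9, as given above. Mmp12 was lower as well, at 116.5 CPM in Ccr2-positive and 283 CPM in Ccr2-negative cells. Library 2, which held 643 and 706 CPM, weighed on both levels, and without it they were 61.9 and 171 CPM. Of the 22 cytokine and chemokine genes 2 were higher and 13 were not called. The 7 lower ones included Ccl4 at 643 CPM, against 2249 CPM, Tnf at 112 CPM, against 248 CPM, and the inflammasome gene Nlrp3 at 185 CPM, against 382 CPM. Without library 5, 9 of 20 were lower and 3 higher, Il6 being the third, at 34.7 CPM, against 9.88 CPM. Bmp2, a bone morphogenetic protein, had 10.2 CPM in Ccr2-positive and 96.6 CPM in Ccr2-negative cells. Cxcl13 had 2.14 CPM in Ccr2-positive cells, from 4 UMIs, and 544 CPM in Ccr2-negative cells. Only 26 Ccr2-negative cells (7.65%) carried a Cxcl13 UMI, so that its level came from few cells. Its level in Ccr2-negative cells ranged from 28.2 CPM in library 3 to 1455 CPM in library 6. Of 10 resident genes outside the rule, Pf4, Igf1, Stab1 and Cbr2 were lower in Ccr2-positive members and none was higher. F13a1 was called higher in Ccr2-positive members without library 5.

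**Figure D5:**
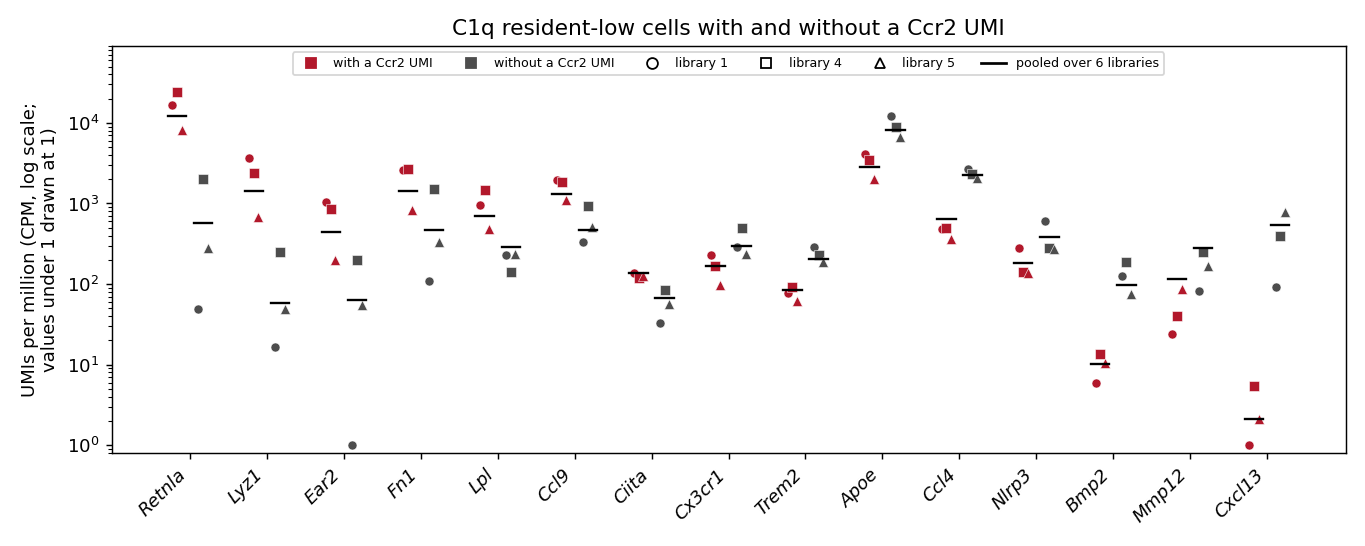
Level of 15 genes in CPM on a log axis in C1q resident-low cells with a Ccr2 UMI (red, left) and without one (grey, right), for libraries 1 (circle), 4 (square) and 5 (triangle), with the level over all 6 libraries as a bar. Retnla and Lyz1 lie higher with Ccr2 in each of the 3 libraries, and Trem2, Apoe, Ccl4 and Cxcl13 lie lower.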

How the data were processed

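Single-cell RNA libraries of mouse aortic tissue were deposited by the authors as 1 table of UMI counts, whole numbers that were not normalized, covering 60871 barcodes and 55450 genes. Cell Ranger 6.1.2 wrote it per the file headers, whereas the submitters' processing notes name Cell Ranger 3.1.0, Seurat 3.1.1, bcl2fastq 5.01 and GRCm38. Neither the header nor the labels say whether read depth was equalised between libraries.

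Barcodes were filtered by the limits in the text. Counts were summed per set of cells and divided by the set's UMIs (CPM, computed here). The work used scanpy 1.11.5, with Scrublet run per library, pandas 2.3.3, scipy 1.17.1 and numpy 2.4.6 under Python 3.11.15. Coordinates came from GENCODE M21, in which all 55450 gene identifiers were found, and promoters from RefSeq. A gene was called by size alone, at 30 CPM, a ratio of 2 with 2 CPM added, and 1 direction in all libraries that held 20 cells or more on both sides. Genes of the selection rules were left out. The size rule was run on simulated counts in which the ratio of the sets varied little between libraries. That run does not cover genes whose ratio varied more between libraries. No cell could be assigned to a sample, so there is no replicate error of a genotype group, and sets chosen by their own counts were given no p-values. The spread between libraries is given for the leading genes as an SD of the log2 ratio within libraries. Intervals are 95% Poisson or Clopper-Pearson intervals, which cover counting error only. Reads were collapsed to UMIs, and the members' 563 cells hold 3527147 UMIs.

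The rule for named genes took the given markers, in each of 17 functional lists the 3 genes of highest level and up to 3 with the largest called ratio in each direction, and the 10 highest and 10 lowest ratios of a comparison. Only some of these are named, a few are not reported here, and any other gene was chosen after its values were seen. The members and the lists were chosen with earlier results of these data known. Alternatives changed the limits of the rule, fold, minimum level, added CPM, depth, doublets and libraries.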

Additional observations from a re-analysis of the deposited data

Results flagged for a closer look

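Of 67 sets of 6 library values examined for 1 value far from the other 5, 10 stood out by Dixon's criterion, the gap to the nearest value over the whole range. Its rate of about 1 in 20 by chance holds for independent, normally distributed values of equal precision. These sets share the same cells, and the libraries held 37 to 294 members. The count of 10 can therefore not be set against that rate. Library 5 stood apart in the members' share of C1q macrophages (31.24%) and of kept barcodes (1.877%), and in Ccl8 (448.2 CPM). Library 2 stood apart in Mmp12 (684.4 CPM), Mmp13 (318.2 CPM), Cx3cr1 (454.3 CPM) and Tmem119 (95.85 CPM), all 4 of which were called higher in members than in C1q resident cells. Library 4 stood apart in S100a4 (615.6 CPM) and Pros1 (102.9 CPM), and library 6 in Ciita (163.6 CPM). Each of these was the highest of the 6 member values. Libraries 3 and 1 gave no such value. What set these values apart was not tested.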

How the results depend on the processing

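No paired analysis was possible because the labels' replicate numbers match none of the 6 libraries. Sets of cells were compared within each library for direction. The main limits are that 1 library supplied over 50% of members, that libraries could not be tied to genotypes, and that the sets were divided by counts of the same cells. The number of members lay between 269 (without library 5) and 526 when each library was left out, and between 409 and 784 under the other limits.

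Calls depended on the thresholds. Against C1q resident cells, 144 higher and 240 lower calls became 313 and 560 at a fold of 1.5, 66 and 87 at a fold of 3, 72 and 129 at a minimum of 100 CPM, and 217 higher at 10 CPM. Leaving out each library gave 140 to 159 higher and 232 to 259 lower calls. Against C1q-low myeloid cells, 301 and 173 calls became 537 and 328 at 1.5, 139 and 88 at 3, and 157 and 68 at 100 CPM. For the highest against the lowest of 4 equal class II parts, 75 higher calls became 323 at 1.5, 22 at 3, 202 at 10 CPM, 37 at 100 CPM, 43 with 3 equal parts, 7 with a division at the median and 226 after thinning, with 93 to 140 when a library was left out, the 140 without library 5, when no library had enough cells to check direction. The 631 lower calls became 1320 at 1.5, 281 at 3, 1581 at 10 CPM, 159 at 100 CPM, 259 with 3 equal parts and 71 with the division at the median. For the Ccr2 division, 104 higher and 141 lower calls became 277 and 354 at 1.5, 34 and 41 at 3, 192 and 241 at 10 CPM, and 48 and 65 at 100 CPM, with 104 to 169 and 133 to 250 when each library was left out, the highest without library 5.

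Detection moved with thinning, which left out 13, 97 and 200 members at 1000, 2000 and 4000 UMIs, so that depth and the cells kept changed together. Thinned to 1000, 2000 and 4000 UMIs and not thinned, the share of members was 20.4%, 32.2%, 44.6% and 39.6% for Ccr2, 12.2%, 20.6%, 31.1% and 34.8% for Trem2, and 16.9%, 30.3%, 40.8% and 40.7% for Cx3cr1. Mmp12 was at 7.27%, 10.7% and 14.6% for the first 3, and H2-Aa at 86.7% and 89.9% for the first 2. Of the values of single genes against resident cells under the alternatives, 24 moved by more than their spread, 1800 did not, and none turned direction.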
